A study of Saccharomyces cerevisiae with 8 samples.

Results

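The genes of this account are the 10 budding yeast genes that build the 5′ cap of messenger RNA or act on RNAs whose cap is missing, incomplete or already released. They were taken by name, for what their products do, with earlier results of these data known. They are CEG1, CET1, ABD1, XRN1, RAT1, RAI1, DXO1, DCS1, DCS2 and RTT103, which make 10 of the 6600 open reading frames counted. All 10 had enough reads to be tested.

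The cap is added to a nascent transcript in successive steps. Cet1 removes the terminal phosphate from the new RNA end, Ceg1 transfers a guanylyl group to it, and Abd1 methylates the guanine; Cet1 and Ceg1 work as a complex. RNA ends that fail this process are cleaned up by Rai1 and Dxo1, which remove incomplete caps, and are degraded by the exonucleases Rat1 in the nucleus and Xrn1 in the cytoplasm, while Rtt103 binds the tail of RNA polymerase II together with Rat1 and Rai1 during transcription termination. Dcs1 hydrolyses the cap fragment left over after decay from the opposite end, and its paralog Dcs2 binds and restrains it.

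Total RNA from Saccharomyces cerevisiae was sequenced in 4 groups. They were ceg1-AA/xrn1D cells given rapamycin (2 libraries), ceg1-AA/xrn1D cells given DMSO (1 library), ceg1-AA cells given rapamycin (2 libraries) and ceg1-AA cells given DMSO (2 libraries). Every strain was MATalpha and carried tor1-1, fpr1::NAT, RPL13AxFKB12::TRP and CEG1-FRB::HIS, so the controls carry these alleles too; tor1-1 and loss of FPR1 make growth insensitive to rapamycin. In this anchor-away system rapamycin joins the FRB tag on Ceg1 to the FKBP12 tag on a ribosomal protein and so draws Ceg1 out of the nucleus. No strain without the FRB tag is among the groups, so the effect of the drug itself and that of moving Ceg1 cannot be told apart. The drug was given at 1 µg/mL for 45 min in YPD at 30 °C, and DMSO was the vehicle. The second ceg1-AA/xrn1D DMSO sample was not analysed here, so comparisons with that group rest on a single library, which was assumed to vary like the others. Nothing in the labels says that replicates came from separate cultures, so p-values measure the spread between these samples, which may be technical.

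The ceg1-AA/xrn1D libraries held between 2990340 and 3385761 counts and the ceg1-AA libraries between 935651 and 1618638, so depth differed with strain. XRN1 had 0 counts in all 3 ceg1-AA/xrn1D libraries and FPR1 had 0 in all 7. These match the strain labels, although the genotype label of the second ceg1-AA/xrn1D samples names XRN3 in place of XRN1. The 4 alpha-cell marker genes summed to 683 to 1487 counts scaled to library size (CPM), against 40.2 to 278 CPM for 6 a-cell marker genes. Of the a-cell genes, MFA1 had 0 counts in all 7 libraries and MFA2 had 1 count in a single library, while STE2, STE6, BAR1 and ASG7 were detected. Mitochondrially encoded genes took 0.281% and 0.250% of counts in ceg1-AA/xrn1D cells with rapamycin and 0.199% with DMSO, and 3.37% and 2.47% in ceg1-AA cells with rapamycin and 1.41% and 1.13% with DMSO. The libraries of the strains thus differed beyond XRN1, and the part of this in the strain differences was not tested. In bulk RNA, fewer cells of a type and less RNA per cell cannot be told apart.

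CEG1 (YGL130W), the guanylyltransferase gene and the one whose protein is tethered, lies on chrVII:266145-267524 on the plus strand of build R64. It was read at 51.0 and 52.6 CPM, scaled by trimmed means of M-values (TMM), in ceg1-AA/xrn1D cells with rapamycin and at 48.9 CPM with DMSO. In ceg1-AA cells it was read at 62.9 and 65.6 CPM with rapamycin and at 53.3 and 47.6 CPM with DMSO. Both rapamycin libraries of ceg1-AA lay above both DMSO libraries, but the difference of 0.34 ± 0.19 (log2, SE) did not pass the test (adjusted p = 0.158, edgeR quasi-likelihood test with Benjamini-Hochberg adjustment over 5879 genes, threshold 0.05; 95% interval -0.07 to 0.76). These values rest on few reads, 66 and 66 in the ceg1-AA libraries with rapamycin and 65 and 47 with DMSO. Each member is a single coding exon and overlaps no annotated gene.

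CET1, the RNA triphosphatase gene (YPL228W, chrXVI:118382-120031, plus strand), was read at 77.1 and 71.9 CPM in ceg1-AA/xrn1D cells with rapamycin and at 61.3 CPM with DMSO. In ceg1-AA cells it was read at 52.4 and 49.7 CPM with rapamycin and at 45.1 and 45.6 CPM with DMSO. All 3 ceg1-AA/xrn1D libraries were above all 4 ceg1-AA libraries. How many of all genes separated in such a way was not counted, here or for the other members. By a different measure, the test between the strains under rapamycin, 43.7% of all genes tested passed. ABD1, the cap methyltransferase gene (YBR236C, chrII:690383-691693, minus strand), was read at 89.8 and 94.3 CPM in ceg1-AA/xrn1D cells with rapamycin and at 92.4 CPM with DMSO. In ceg1-AA cells ABD1 was read at 129 and 136 CPM with rapamycin and at 127 and 96.3 CPM with DMSO. For ABD1 the order was the opposite in TMM-scaled CPM, with all 3 ceg1-AA/xrn1D libraries below all 4 ceg1-AA libraries. This did not hold in the authors' deposited values scaled for gene length (TPM). There ABD1 was 89.1, 87.4 and 83.4 in ceg1-AA/xrn1D cells, against 103 and 108 in ceg1-AA cells with rapamycin and 66.5 and 50.3 with DMSO.

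XRN1, the cytoplasmic exonuclease gene (YGL173C, chrVII:175527-180113, minus strand), had 0 counts in ceg1-AA/xrn1D cells. In ceg1-AA cells it was read at 366 and 336 CPM with rapamycin and at 651 and 641 CPM with DMSO. The groups did not overlap, and the share of all genes without overlap was not counted. Set against a floor of 3 counts per library, the ceg1-AA/xrn1D level under rapamycin was at least 429-fold lower than that of ceg1-AA, and under DMSO at least 726-fold lower. The genes on either side of it, BUD13 and NUP49, passed no test in any comparison (NUP49 in ceg1-AA/xrn1D against ceg1-AA cells with rapamycin, -0.41, adjusted p = 0.0553, edgeR). BUD13 had only 7 to 26 reads per library, so a change in it could hardly pass. Between the strains it stood at -0.60 ± 0.43 with rapamycin and at -0.97 ± 0.55 with DMSO (log2, SE).

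RAT1, the nuclear exonuclease gene (YOR048C, chrXV:418630-421650, minus strand), was read at 171 and 165 CPM in ceg1-AA/xrn1D cells with rapamycin and at 178 CPM with DMSO. In ceg1-AA cells RAT1 was read at 212 and 242 CPM with rapamycin and at 324 and 283 CPM with DMSO. The 3 ceg1-AA/xrn1D libraries were the lowest of the 7 in TMM-scaled CPM. RAI1 (YGL246C, chrVII:37617-38780, minus strand), whose protein partners Rat1, was read at 111 and 128 CPM in ceg1-AA/xrn1D cells with rapamycin and at 138 CPM with DMSO. In ceg1-AA cells RAI1 was read at 165 and 213 CPM with rapamycin and at 147 and 160 CPM with DMSO. RTT103 (YDR289C, chrIV:1038280-1039509, minus strand) was read at 74.0 and 53.9 CPM in ceg1-AA/xrn1D cells with rapamycin and at 56.0 CPM with DMSO, and in ceg1-AA cells at 95.2 and 99.4 CPM with rapamycin and at 76.2 and 75.0 CPM with DMSO. For RAI1 and RTT103 all 3 ceg1-AA/xrn1D libraries lay below all 4 ceg1-AA libraries in TMM-scaled CPM. The share of all genes with such an order was not counted. The rapamycin libraries of ceg1-AA were the highest for RAI1 and RTT103, also in the TPM. Against ceg1-AA cells with DMSO these orders turned with the scaling. In the TPM RAI1 was 122, 131 and 137 in ceg1-AA/xrn1D cells, against 86.6 and 94.1 in ceg1-AA cells with DMSO. RAT1 was 91.4, 87.3 and 94.1 against 77.8 and 70.1, and RTT103 was 77.7, 52.6 and 53.2 against 42.6 and 41.7.

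DXO1 (YDR370C, chrIV:1217782-1219110, minus strand), the cytoplasmic relative of RAI1, was read at 106 and 128 CPM in ceg1-AA/xrn1D cells with rapamycin and at 120 CPM with DMSO. In ceg1-AA cells it was read at 126 and 128 CPM with rapamycin and at 59.8 and 65.9 CPM with DMSO. The 2 ceg1-AA DMSO libraries stood alone below the other 5, which spanned 106 to 128 CPM.

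The scavenger genes DCS1 (YLR270W, chrXII:681186-682238, plus strand) and DCS2 (YOR173W, chrXV:657264-658325, plus strand) are paralogs, and their reads could in principle be confused. Their coding sequences were 69.5% identical over 1043 aligned bases, with a longest identical run of 23 bases, and no stretch of 50 bases of either occurs elsewhere in the genome. The run is shown because it marks the most that a read could share between them, capitals marking the shared bases and lower case the 15 bases on each side.
DCS1: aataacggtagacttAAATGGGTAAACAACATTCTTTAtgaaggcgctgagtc
DCS2: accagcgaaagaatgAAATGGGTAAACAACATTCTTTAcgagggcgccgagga
DCS1 was read at 172 and 150 CPM in ceg1-AA/xrn1D cells with rapamycin and at 119 CPM with DMSO. In ceg1-AA cells DCS1 was read at 18.1 and 40.7 CPM with rapamycin and at 53.3 and 90.2 CPM with DMSO. DCS2 was read at 143 and 104 CPM in ceg1-AA/xrn1D cells with rapamycin and at 77.6 CPM with DMSO. In ceg1-AA cells DCS2 was read at 32.4 and 51.7 CPM with rapamycin and at 22.1 and 129 CPM with DMSO. The 2 ceg1-AA DMSO libraries differed by 2.49 on the log2 scale for DCS2, more than 99.3% of all genes tested; for DCS1 the ceg1-AA rapamycin libraries differed by 1.13, more than 98.1%. Every comparison of DCS2 that uses ceg1-AA DMSO cells therefore depends on which of those 2 libraries is kept.

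**Figure D1:**
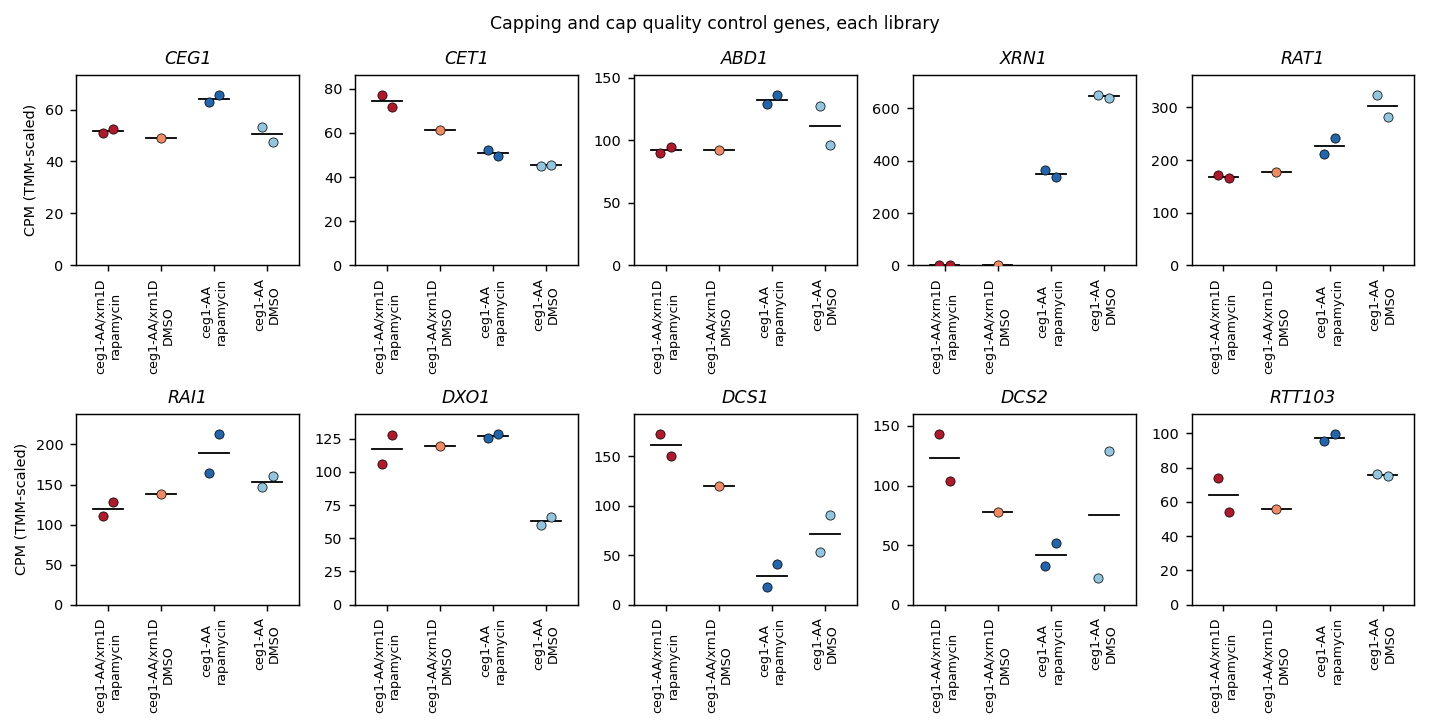
TMM-scaled CPM (vertical axes, each starting at 0) of the 10 genes in each of the 7 libraries, with 1 panel per gene and the groups from left to right ceg1-AA/xrn1D with rapamycin, ceg1-AA/xrn1D with DMSO, ceg1-AA with rapamycin and ceg1-AA with DMSO. DXO1 is low only in the 2 ceg1-AA DMSO libraries (59.8 and 65.9 CPM), and DCS2 is far apart in them (22.1 and 129 CPM).

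The promoters of the paralogs were also compared, because DCS1 and DCS2 had the highest change of the 9 genes, XRN1 set aside, between strains under rapamycin. Windows ran from 250 bases before to 50 after the first coding base, in RefSeq build R64, and were searched on both strands for AGGGG, the core of the stress response element, with capitals marking matches. The DCS2 window (chrXV:657014-657313, plus strand) held 2 matches and the DCS1 window (chrXII:680936-681235, plus strand) none.
DCS2: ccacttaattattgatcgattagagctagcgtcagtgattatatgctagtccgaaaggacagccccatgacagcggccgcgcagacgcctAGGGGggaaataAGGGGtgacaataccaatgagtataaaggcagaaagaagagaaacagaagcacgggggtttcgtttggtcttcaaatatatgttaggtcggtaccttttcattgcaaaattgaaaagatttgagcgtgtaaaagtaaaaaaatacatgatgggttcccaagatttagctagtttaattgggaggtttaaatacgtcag
DCS1: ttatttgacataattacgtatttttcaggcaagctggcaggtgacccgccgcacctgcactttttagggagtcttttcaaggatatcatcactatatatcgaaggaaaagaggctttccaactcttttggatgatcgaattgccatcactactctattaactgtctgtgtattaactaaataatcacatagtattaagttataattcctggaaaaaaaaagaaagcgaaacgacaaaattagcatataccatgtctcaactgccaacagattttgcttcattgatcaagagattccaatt
Of 6020 such windows, 21.6% held at least 1 match and 2.92% held at least 2. The windows of the other 9 genes held none, so the letters were found in 1 of the 10 windows.

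Length-normalised levels allow the genes to be compared with each other. These are the authors' deposited TPM values, which are scaled for gene length, as means ± SD over libraries. In ceg1-AA/xrn1D cells with rapamycin DCS1 was the highest of the 10 at 187 ± 28.8 TPM (n = 2), followed by DCS2 at 143 ± 39.8, RAI1 at 127 ± 5.94 and DXO1 at 110 ± 9.13. The ranges of DCS1 and DCS2 overlapped, as did those of DCS2 and each of RAI1 and DXO1, so this order is not firm. In the ceg1-AA/xrn1D DMSO library RAI1 (137 TPM), DCS1 (129) and DXO1 (107) led.

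In ceg1-AA cells with rapamycin RAI1 was the highest at 169 ± 27.6 TPM (n = 2), and its range lay above that of all the others. ABD1 (106 ± 3.32), XRN1 (104 ± 10.1) and DXO1 (100 ± 0.562) followed, and their order was not firm because the range of XRN1 took in both of the others. DCS1 was the lowest at 28.9 ± 15.2 TPM, its range overlapping those of CET1 (33.0 ± 0.969) and DCS2 (41.0 ± 12.5). With DMSO, ceg1-AA cells had XRN1 highest at 114 ± 4.14 TPM, RAI1 next at 90.4 ± 5.31, and CET1 with the lowest mean at 19.0 ± 0.178 (n = 2). DCS2 ran from 14.3 to 83.1 TPM in those libraries, a range that took in CET1 and all other members but XRN1 and RAI1, so its place in the order is not set. XRN1, RAI1 and RAT1 did not overlap in range there, and CEG1 (25.1 ± 2.02) stood between DXO1 (32.4 ± 2.14) and CET1. RAI1 exceeded RAT1 in TPM in all 7 libraries. CEG1 was above 40.0% of all 6600 genes in ceg1-AA cells with DMSO, and XRN1 above 82.2%.

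Rapamycin was first compared with DMSO in ceg1-AA cells, 2 libraries against 2. This shows how these transcripts differ with the drug, whose own effect and that of tethering Ceg1 are not separated. DXO1 rose and XRN1, RAT1 and DCS1 fell, while the 3 capping enzyme genes, RAI1, RTT103 and DCS2 did not pass the test under TMM scaling. That is 1 higher and 3 lower of 10, beside 24.3% higher and 22.8% lower among all genes tested (47.1% in either direction). The share of the 10 that passed was near the background.

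DXO1 was 2.02-fold higher with rapamycin, at 127 ± 1.77 against 62.9 ± 4.28 CPM with DMSO (SD, n = 2 each; log2 change 1.02 ± 0.17 SE, adjusted p = 0.000826, edgeR). XRN1 fell by 0.88 ± 0.14 on the log2 scale, to 351 ± 21.1 against 646 ± 7.23 CPM (adjusted p = 0.000789, edgeR). DCS1 fell by 1.27 ± 0.35 (adjusted p = 0.0117, edgeR), the least regular of the changes because its rapamycin libraries were 18.1 and 40.7 CPM. RAT1 fell by 0.42 ± 0.15 (adjusted p = 0.0359, edgeR). The others were CET1 at 0.17 ± 0.19 (95% interval -0.26 to 0.60), ABD1 at 0.24 ± 0.17 (-0.13 to 0.61), RAI1 at 0.30 ± 0.17 (-0.07 to 0.67) and RTT103 at 0.36 ± 0.20 (-0.07 to 0.80), all log2 changes with their SE.

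The median change was 0.20 over the 10 genes and 0.11 over all genes tested. Scaling to total counts shifted the median of all genes by 0.51 and that of the deposited TPM by 0.61, and TMM assumes that most genes do not change. DXO1 lost its call only when scaled to mitochondrially encoded genes (0.34, adjusted p = 0.539, edgeR), and XRN1 only in the TPM (-0.13, adjusted p = 0.663, limma). Under total counts 7 of the 10 passed, 6 higher and 1 lower, beside 2909 and 649 of all genes. RAT1 was then at 0.10 and DCS1 at -0.76 (adjusted p = 0.0875, edgeR). CEG1 (0.86), CET1 (0.69), ABD1 (0.75), RAI1 (0.81) and RTT103 (0.88) were called higher. In the TPM these genes and DXO1 were called, 6 higher and 0 lower, beside 3225 and 576 of all genes. Mitochondrial scaling called 0 higher and 4 lower, DCS2 among them (-1.56), beside 82 and 1905. Whether the capping enzyme genes passed thus turned with the scaling. Relative to the median of all genes, DXO1 lay between 0.90 and 0.91 and DCS1 near -1.38 under each count scaling. A scaling shifts all genes almost alike, so such values stay nearly constant for any gene and are no test of these changes. The call of RAT1 was lost when DMSO replicate 1 (-0.31), rapamycin replicate 1 (-0.32) or rapamycin replicate 2 (-0.52) of ceg1-AA was dropped, and that of DCS1 without ceg1-AA rapamycin replicate 1 (-0.80, adjusted p = 0.0922, edgeR). DCS2 stood at -0.79 ± 0.60 over all libraries, at -1.62 (adjusted p = 1.5437e-05) without DMSO replicate 1, and at 0.92 (adjusted p = 0.0369) without DMSO replicate 2, both by edgeR, so its direction changed with the library left out.

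**Figure D2:**
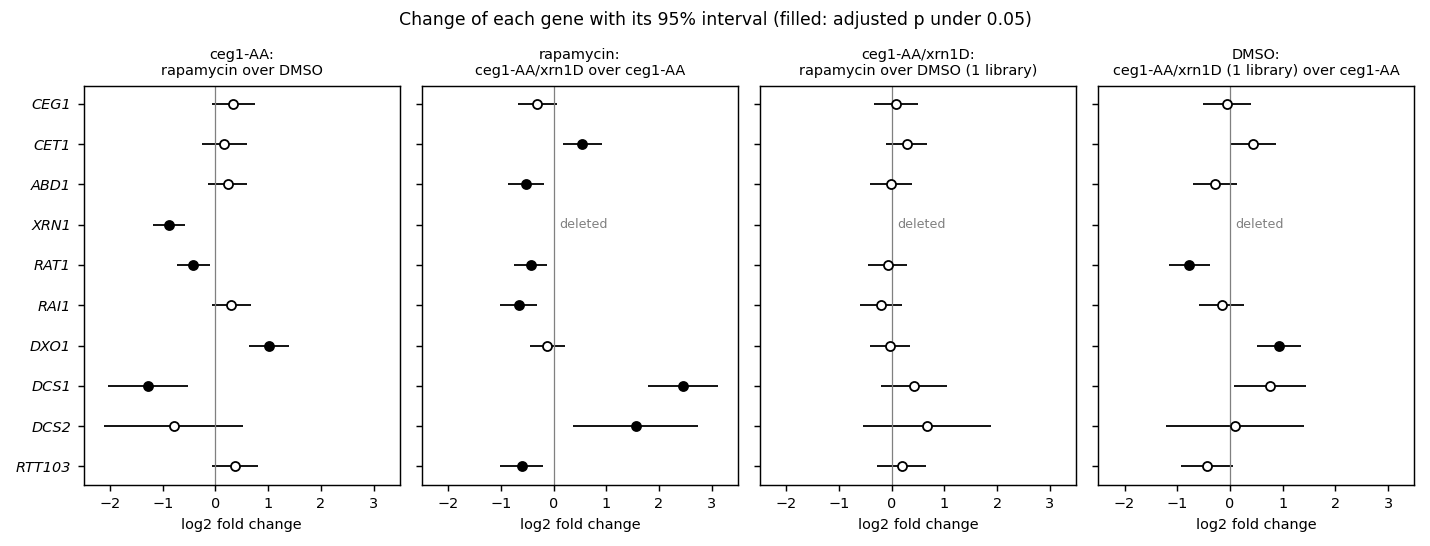
log2 fold change (horizontal axes) with 95% interval for each gene in each comparison, filled where the adjusted p is under 0.05. DXO1 lies at 1.02 for rapamycin in ceg1-AA cells, and the DCS2 interval there runs from -2.12 to 0.53.

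The same treatment was then compared in ceg1-AA/xrn1D cells, 2 rapamycin libraries against 1 DMSO library. None of the 9 genes passed the test, and none had an unadjusted p under 0.05 by edgeR; 0.068% of all genes tested passed, 0.034% in each direction. limma on the TPM called none of the 9 either. DESeq2 gave an adjusted p for RAT1 and RAI1 alone (0.875 and 0.731), so the other 7 could not be called by it. DXO1 was -0.03 ± 0.17 (95% interval -0.41 to 0.34), RAT1 -0.08 ± 0.17 and RAI1 -0.21 ± 0.18. DCS1 was 0.43 ± 0.28 (-0.20 to 1.06) and DCS2 0.67 ± 0.55 (-0.54 to 1.88), intervals that reach well above 0. CET1 was 0.28 ± 0.18 (-0.11 to 0.67), RTT103 0.19 ± 0.21, CEG1 0.08 ± 0.19 and ABD1 -0.01 ± 0.18. The median was 0.08 over the 9 genes and 0.00 over all genes tested.

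Whether the response to rapamycin differed between the strains was tested directly, as the change in ceg1-AA/xrn1D minus the change in ceg1-AA. Of the 9 genes 2 passed, 1 in each direction, beside 21.5% of all genes tested (11.9% higher and 9.66% lower). They were DXO1 at -1.05 ± 0.24 (adjusted p = 0.0136, edgeR) and DCS1 at 1.70 ± 0.45 (adjusted p = 0.0240, edgeR). DXO1 passed under all 12 alternatives run, between -1.55 and -0.92. Mitochondrial scaling, under which DXO1 lost its call for rapamycin in ceg1-AA, was not run for this difference. The single ceg1-AA/xrn1D DMSO library could not be left out. DCS1 lost the call in 5 of 12: when ceg1-AA rapamycin replicate 1 was dropped (1.23), when either rapamycin library of ceg1-AA/xrn1D was dropped (1.60 for replicate 1, 1.80 for replicate 2), under total counts (1.26, adjusted p = 0.0585, edgeR) and in the TPM (1.25, adjusted p = 0.152, limma). RAI1 stood at -0.50 ± 0.25 (95% interval -1.05 to 0.04) and DCS2 at 1.46 ± 0.81 (-0.33 to 3.25), and neither passed. RAI1 did pass under total counts (-0.96, adjusted p = 0.0126, edgeR) and in the TPM (-0.9985, adjusted p = 0.0309, limma), as did ABD1 under total counts (-0.70, adjusted p = 0.0472, edgeR). The members called were then 0 higher and 3 lower under total counts and 0 higher and 2 lower in the TPM. The remaining differences were RAT1 at 0.34 ± 0.22, CET1 at 0.11 ± 0.26, RTT103 at -0.17 ± 0.29, ABD1 at -0.24 ± 0.25 and CEG1 at -0.26 ± 0.26. The median was -0.17 over the 9 genes and -0.10 over all genes tested.

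Between the strains under rapamycin, 2 libraries against 2, DCS1, DCS2 and CET1 were higher and RAI1, RTT103, ABD1 and RAT1 lower in ceg1-AA/xrn1D, while CEG1 and DXO1 did not pass. This was 7 of 9, 3 higher and 4 lower, beside 21.2% and 22.5% of all genes (43.7% in either direction). DCS1 was 5.49-fold higher, at 161 ± 15.8 against 29.4 ± 16.0 CPM (SD, n = 2 each; log2 2.46 ± 0.30, adjusted p = 0.000158, edgeR). DCS2 was 1.56 ± 0.53 higher on the log2 scale (adjusted p = 0.0362, edgeR) and CET1 0.54 ± 0.17 higher (adjusted p = 0.0224, edgeR). RAI1 was lower, at -0.66 ± 0.16, with RTT103 at -0.61 ± 0.18, ABD1 at -0.52 ± 0.16 and RAT1 at -0.43 ± 0.14 (adjusted p of 0.00694, 0.0204, 0.0202 and 0.0300 in that order, edgeR). CEG1 was -0.31 ± 0.17 (95% interval -0.68 to 0.06) and DXO1 -0.12 ± 0.15 (-0.45 to 0.21), and neither passed. The median was -0.31 over the 9 genes and 0.02 over all genes tested. In the deposited TPM RAT1 stood at 0.0008 and 2 of the 9 passed, DCS1 (2.74) and CET1 (0.83), both higher. Among all genes 1755 were higher and 679 lower there. None of the 4 lower calls was kept in the TPM, with RAI1 at -0.40, RTT103 at -0.36 and ABD1 at -0.26 (adjusted p of 0.0816, 0.195 and 0.262, limma). DCS2 also lost its call there (1.78, adjusted p = 0.0851, limma). Total counts dropped the calls of RAT1 (adjusted p = 0.0662, edgeR) and RTT103 (adjusted p = 0.0598, edgeR).

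Most of the calls made under TMM for the strains under rapamycin also needed all 4 rapamycin libraries. Of the 9, 2 passed without ceg1-AA rapamycin replicate 1 and 1 without its replicate 2. Likewise 2 passed when ceg1-AA/xrn1D replicate 1 was dropped and 2 when replicate 2 was, and DESeq2 called 2. RAI1 fell short when ceg1-AA replicate 2 (-0.46) or ceg1-AA/xrn1D replicate 1 (-0.56) was dropped, and in the TPM (-0.40). DCS1 passed under all 11 alternatives, between 1.98 and 3.15.

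Under DMSO, where ceg1-AA/xrn1D has 1 library, DXO1 was 0.93 ± 0.19 higher (adjusted p = 0.00320, edgeR) and RAT1 0.77 ± 0.17 lower (adjusted p = 0.00606, edgeR) in ceg1-AA/xrn1D than in ceg1-AA. These were 2 of 9, beside 19.2% higher and 20% lower among all genes (39.2% in either direction). DXO1 was called under all 8 alternatives run. None of these scaled to mitochondrially encoded genes or left out the ceg1-AA/xrn1D library. RAT1 was -0.23 under total counts (adjusted p = 0.264, edgeR) and 0.35 in the deposited TPM. Under TMM the genes that did not pass were CET1 at 0.44 ± 0.20, CEG1 at -0.05 ± 0.21, RAI1 at -0.15 ± 0.19, ABD1 at -0.28 ± 0.19 and RTT103 at -0.43 ± 0.23, and the last 4 were above 0 under total counts. CET1 and DCS1 were called higher under total counts (0.98 and 1.30) and in the TPM (1.25 and 1.49). CEG1 (0.74) and RAI1 (0.60) were called higher in the TPM as well. Neither scaling called a member lower. The median was -0.05 over the 9 genes and 0.04 over all genes tested. DCS1 was 0.75 ± 0.31 (adjusted p = 0.0747, edgeR), and 1.16 without ceg1-AA DMSO replicate 2, where it passed. DCS2 was -0.73 without replicate 1 and 1.81 without replicate 2. The comparisons of rapamycin with DMSO in ceg1-AA and of the strains under DMSO share the same ceg1-AA DMSO libraries, so DXO1 at 1.02 and 0.93 are not independent values.

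**Figure D3:**
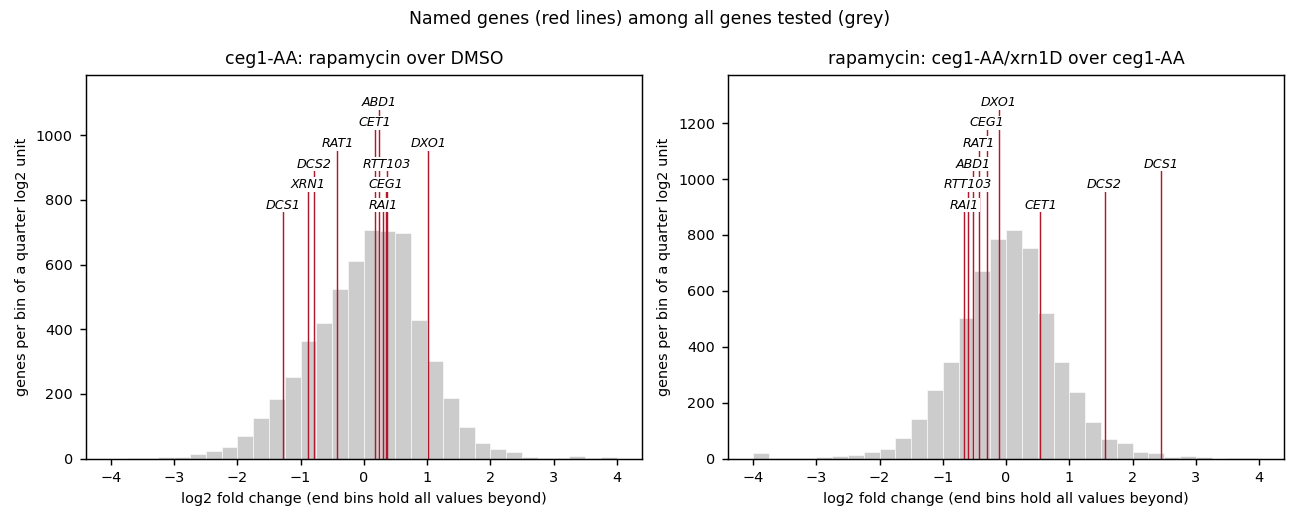
Distribution of log2 fold change over all 5879 genes tested (grey, genes per bin) with the named genes as red lines. DXO1 and XRN1 lie toward opposite sides for rapamycin in ceg1-AA cells, at 1.02 and -0.88, and DCS1 lies at 2.46 in the strain comparison with rapamycin.

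Ratios of 2 genes within a library do not depend on how libraries are scaled, but a TPM ratio does depend on the authors' bias factor, which differs between genes and libraries (0.71 to 0.95 for RAT1). CET1 over CEG1, the subunits of one complex, was 0.38 and 0.25 (log2 of the TPM ratio) in ceg1-AA/xrn1D cells with rapamycin and 0.14 with DMSO, against -0.51 and -0.62 in ceg1-AA cells with rapamycin and -0.49 and -0.31 with DMSO. The 3 ceg1-AA/xrn1D libraries lay above all 4 ceg1-AA libraries, and how many pairs of genes separate so was not counted. RAI1 over RAT1 was 0.42 and 0.58 in ceg1-AA/xrn1D cells with rapamycin and 0.54 with DMSO. In ceg1-AA cells that ratio was 0.92 and 0.90 with rapamycin and 0.15 and 0.43 with DMSO. The lead of ceg1-AA cells with rapamycin over ceg1-AA/xrn1D cells was smaller without the bias factor. As log2 count ratios RAI1 over RAT1 was -0.62 and -0.37 in ceg1-AA/xrn1D cells with rapamycin and -0.37 with DMSO, and in ceg1-AA cells -0.37 and -0.19 with rapamycin and -1.14 and -0.82 with DMSO. DXO1 over RAI1 was -0.23 and -0.16 in ceg1-AA/xrn1D cells with rapamycin and -0.36 with DMSO, and in ceg1-AA cells -0.58 and -0.90 with rapamycin and -1.49 and -1.47 with DMSO. XRN1 over RAT1 was 0.30 and 0.14 in ceg1-AA cells with rapamycin and 0.51 and 0.74 with DMSO. With 2 libraries against 2 the smallest two-sided exact permutation p is 0.333, so these ratios were described and not tested.

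**Figure D4:**
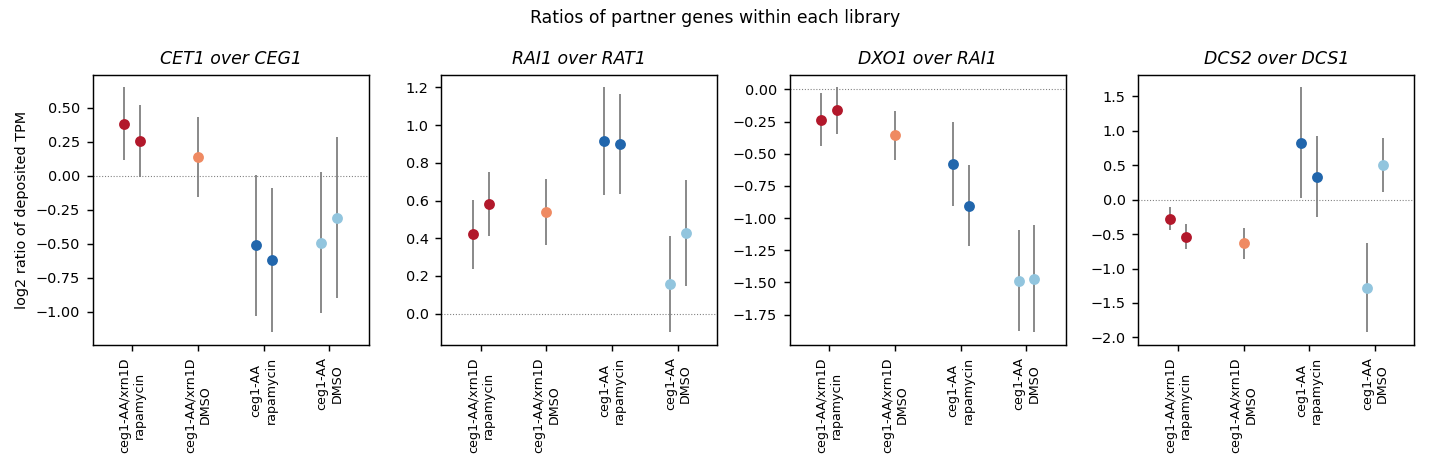
log2 ratio of deposited TPM (vertical axes) of partner genes in each library, groups as in the plot of CPM. DXO1 over RAI1 is lowest in ceg1-AA cells with DMSO (-1.49 and -1.47), and CET1 over CEG1 is above 0 in all 3 ceg1-AA/xrn1D libraries.

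A list of 17 other genes of cap binding, decapping, early transcription and termination was read beside the 10. With rapamycin in ceg1-AA cells 2 rose and 8 fell, beside 24.3% and 22.8% of all genes tested, with a median change of -0.47 over the list against 0.11 over all genes tested. Under total counts, and likewise in the TPM, 8 of the list were higher and 3 lower. Those that rose were PCF11, a cleavage factor subunit (1.58), and TGS1, which methylates the cap of small RNAs further (0.77). The largest falls were PAT1, a decapping activator (-1.29), CDC33, the cytoplasmic cap-binding protein (-1.18), DHH1, an RNA helicase in decapping (-1.11), and NAB3, a termination factor (-0.88). In the strain comparison with rapamycin 5 were higher and 6 lower, beside 21.2% and 22.5% of all genes: DHH1 led at 3.01 with CBC2, a nuclear cap-binding subunit (0.83), PAT1 (0.81) and NRD1, which acts with Nab3 (0.57). The lowest were SPT5, an elongation factor (-1.04), SEN1, a termination helicase (-0.77), TGS1 (-0.72) and EDC3, an enhancer of decapping (-0.60). Under total counts 6 were higher and 4 lower, and in the TPM 8 and 2. Under DMSO 3 were higher, DHH1 at 1.90, PCF11 at 0.80 and DCP2, the decapping enzyme, at 0.48, and 6 lower, including SPT5 (-1.24) and MET22, whose enzyme removes an inhibitor of Xrn1 and Rat1 (-0.96). Among all genes 19.2% were higher and 20% lower there. Under total counts 5 of the list were higher and 1 lower under DMSO, and in the TPM 10 higher and 0 lower. The list's median was 0.20 for the strains under rapamycin and -0.23 under DMSO. The response to rapamycin differed between strains for 6 of the 17, 5 higher and 1 lower, beside 11.9% and 9.66% of all genes. Under total counts, and likewise in the TPM, the 6 called were all lower, so the direction of this count turned with the scaling. None passed for rapamycin in ceg1-AA/xrn1D cells by edgeR, with 1 at an unadjusted p under 0.05. The counts fell with single libraries left out: to 6 without ceg1-AA rapamycin replicate 2 for the drug in ceg1-AA, to 5 without ceg1-AA DMSO replicate 1 for the strains under DMSO, and to 6 or 7 without any 1 of the 4 libraries for the strains under rapamycin. For the difference of responses the count was 3 without replicate 1 and 1 without replicate 2 of either rapamycin group.

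For DXO1 and DCS1, the called members with the highest and the lowest change for rapamycin against DMSO in ceg1-AA cells (88.5% and 7.54% of all genes had a lower change), the genes of closest profile over the 7 libraries were found among 4897 genes with a mean count of at least 50. The likeness is the root mean square difference of mean-centred log2 CPM. For DXO1 they were YFR056C (0.0537), OMA1 (0.0860) and MDM32 (0.0920), and for DCS1 GRE3 (0.274), ALD4 (0.340) and SSE2 (0.366).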

How the data were processed

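Per-gene counts, gene lengths, a bias factor and TPM came in the deposited tables, 1 for each library. Counts are the authors' raw read counts per open reading frame, per the file headers. TPM were deposited by the authors: recomputed from count, length and bias factor they deviated by at most 0.00028%. The bias factor is a ratio deposited by the authors. The submitters' processing notes name HISAT2 2.1.1, SAMtools 1.15.1, FastQC 0.11.5, DESeq2 and build R64/sacCer3; the counting program and its use of strand are not given in the sources used here. None of the 10 genes overlaps another annotated gene (nearest gap 90 to 948 bases).

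The test on counts was edgeR 4.0.16, run in R 4.3.3 (filterByExpr, TMM, quasi-likelihood, 1 coefficient per group over 7 libraries), with p-values adjusted over 5879 genes. DESeq2 1.42.0 and limma 3.58.1 (on log2 of TPM + 1, chosen after seeing the data) were alternatives, as were total counts, no filter and a replicate block. Mitochondrial scaling was run for rapamycin against DMSO in ceg1-AA only. Each library was also left out in turn, where its group had more than 1. The fits were tested on simulated data. The 683 open reading frames that matched no name in the reference held 2.60 to 3.57% of counts. Floors on counts, and errors on the ratios of partner genes, cover counting error only. The intervals of log2 changes come from the edgeR quasi-likelihood fit, so they also take in the spread between libraries. The named genes were all 10 members, the called genes of a list of 17 with up to 4 examples a direction, and the neighbours and closest profiles described above. The members and lists were chosen with earlier results of these data known.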

Additional observations from a re-analysis of the deposited data

Results flagged for a closer look

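The response to rapamycin differed between the strains, by the interaction test, for DXO1 and DCS1. DXO1 was -0.03 ± 0.17 (log2 change, SE) in ceg1-AA/xrn1D cells and 1.02 ± 0.17 in ceg1-AA cells, a difference of -1.05 ± 0.24. DCS1 was 0.43 ± 0.28 in ceg1-AA/xrn1D cells and -1.27 ± 0.35 in ceg1-AA cells, a difference of 1.70 ± 0.45. DXO1 passed under all 12 alternatives, while DCS1 lost the call in 5 of 12, with an adjusted p of up to 0.152. Both rest on the single ceg1-AA/xrn1D DMSO library, which no alternative left out. None of the 12 alternatives scaled to mitochondrially encoded genes. Mitochondrially encoded genes took 0.199 to 0.281% of counts in ceg1-AA/xrn1D libraries and 1.13 to 3.37% in ceg1-AA libraries, and their part in the difference was not tested.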

How the results depend on the processing

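Over 471 alternative values for the 10 genes, 357 kept their direction and side of the threshold, and 7 had no adjusted p (DESeq2, rapamycin in ceg1-AA/xrn1D). With the direction kept, 47 lost a call and 22 gained one. The remaining 38 changed sign, and some of these also lost or gained a call. The cause was not tested. Total counts called 7 of the 10 genes for rapamycin in ceg1-AA and 2092 genes for the difference of responses, and put RAT1 at 0.10 for rapamycin in ceg1-AA, ABD1 at 0.055 and DXO1 at 0.023 for rapamycin in ceg1-AA/xrn1D, CEG1 at 0.49, ABD1 at 0.27, RAI1 at 0.39 and RTT103 at 0.11 for the strains under DMSO, and CET1 at -0.34 and RAT1 at -0.11 for the difference (all log2). With limma on TPM, the members called were 2 for the strains under rapamycin and 5 under DMSO, where 3548 genes passed. The TPM put RAT1 at 0.27 and DCS2 at 0.19 for rapamycin in ceg1-AA, RAT1 at 0.0008 and DXO1 at 0.14 for the strains under rapamycin, ABD1 at 0.079 and DXO1 at 0.044 for rapamycin in ceg1-AA/xrn1D, and CET1 at -0.43 and RAT1 at -0.35 for the difference. For the strains under DMSO they put CEG1 at 0.74, ABD1 at 0.52, RAT1 at 0.35, RAI1 at 0.60 and RTT103 at 0.33. Scaling to mitochondrially encoded genes put CEG1 at -0.31, CET1 at -0.50, ABD1 at -0.40, RAI1 at -0.35 and RTT103 at -0.30 for rapamycin in ceg1-AA. The higher and lower calls for rapamycin in ceg1-AA were 1429 and 1338 under TMM, 2909 and 649 under total counts, 3225 and 576 in the TPM and 82 and 1905 under mitochondrial scaling; for the strains under DMSO they were 1128 and 1176 under TMM, 2681 and 436 under total counts and 3271 and 277 in the TPM. For the strains under rapamycin they were 1246 and 1321 under TMM and 1755 and 679 in the TPM, and for the difference 697 and 568 under TMM, 316 and 1776 under total counts and 207 and 1572 in the TPM. DESeq2 called 2 of 9 members for the strains under rapamycin and 5 of 17 list genes under DMSO, and put DCS2 at -0.019 there. For rapamycin in ceg1-AA/xrn1D it called 34 genes, no filter 12, limma on TPM 0 and the replicate block 0. Replicate numbers did not pair the samples (same-number correlations 0.13, -0.15 and -0.03), and with the replicate block ABD1 stood at 0.028 for rapamycin in ceg1-AA/xrn1D and RAT1 lost its call for rapamycin in ceg1-AA (adjusted p = 0.0538, edgeR). Leaving out 1 library at a time moved the members called between 2 and 5 for rapamycin in ceg1-AA, 1 and 2 for the strains under rapamycin, 3 and 4 under DMSO and 1 and 3 for the difference. The list genes called lay between 6 and 10, 6 and 7, 5 and 7, and 1 and 8 in that order. All genes called lay between 1602 and 1804 for the strains under rapamycin and between 559 and 1594 for the difference, and were 0 for rapamycin in ceg1-AA/xrn1D. The log2 changes of DCS2 lay between -1.62 and 0.92 for rapamycin in ceg1-AA, between -0.73 and 1.81 for the strains under DMSO and between -0.25 and 2.29 for the difference. Under the same omissions CEG1 lay between -0.12 and 0.037 for the strains under DMSO, DXO1 between -0.26 and 0.0075 for the strains under rapamycin, and RTT103 between -0.42 and 0.040 for the difference. For rapamycin in ceg1-AA/xrn1D the ranges were -0.043 to 0.029 for ABD1, -0.17 to 0.092 for DXO1 and -0.055 to 0.40 for RTT103. Depth limits CEG1, CET1, DCS1, DCS2 and RTT103, with 19 to 127 reads each in the ceg1-AA libraries. It also limits DXO1, with 73 and 65 reads in the ceg1-AA DMSO libraries.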
